A study of Homo sapiens with 6 samples.

Results

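The regions described here are the 100-kb stretches of the human autosomes that kept the least and the most CpG methylation when H9 embryonic stem cells were reset. Chromosomes 1 to 22 of GRCh37 were divided from their first base into 28823 bins of 100 kb, and 26653 bins with at least 200 CpGs and at least 500 methylation calls in every library were eligible. The level of a bin in a library is the percentage of its calls that were methylated. The 2665 bins with the lowest mean over the 3 reset libraries are called the low set, the 2665 with the highest mean the high set, and the 21323 others the middle bins. The members were thus chosen on the reset levels themselves, so reset levels, and differences between reset and conventional cells in these bins, are given as descriptions. The conventional level, the gene content and the position of the bins did not enter the choice, and the CpG number and the conventional calls entered it only through these minimums.

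H9 is an established human embryonic stem cell line, here 1 line examined by whole-genome bisulfite sequencing in 3 libraries of conventional and 3 libraries of reset cells. Conventional cells were grown in 20% KSR (a serum replacement) with 10 ng/ml bFGF. Reset cells had been transfected with NANOG and KLF2, which doxycycline induced for a limited time, and were then held without doxycycline in t2iL+Gö, a medium with human LIF, the GSK3 inhibitor CHIR99021 (1 μM), the MEK inhibitor PD0325901 (1 μM) and the protein kinase C inhibitor Gö6983 (5 μM). All cultures were on mouse embryonic fibroblast feeders in 5% oxygen. The culture medium, the transgenes and the passage history differ together between the groups and cannot be told apart.

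The conventional libraries held 92023996 to 98004161 calls and the reset libraries 70329213 to 80199615. A bin of the low set had a median of 2225 to 2339 calls per conventional library and 1520 to 1738 per reset library. In the high set these medians were 3630 to 3866 and 2807 to 3197. Bin levels of replicate libraries were alike over the 26653 bins, with Spearman's rho of 0.984 to 0.985 between reset libraries and of 0.964 to 0.965 between conventional libraries, as a description across bins. The SD of a bin over the 3 reset libraries had a median of 0.808 percentage points in the low set and 1.02 in the high set. The study describes the libraries of a group as biological replicates. The labels do not say whether they came from separate cultures or resettings, so p-values measure only the spread between these libraries, part of which may be technical.

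In mammals, methylation at CpGs is copied after replication by DNMT1 with its partner UHRF1, is placed anew by DNMT3A and DNMT3B, and is removed through oxidation by the TET enzymes or by loss at replication. Most CpGs of a differentiated or conventional pluripotent genome are methylated, apart from CpG islands (CGIs), the dense CpG clusters found at many promoters. Bodies of transcribed genes are a known target of DNMT3B through the histone mark H3K36me3, and large gene-poor stretches that replicate late and lie at the nuclear lamina are known to lose methylation first in several cell types. Neither histone marks nor replication timing were measured in these libraries.

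To show what the sets look like as sequence, 200 bases are printed from 4 bins, with each CpG in capitals. They are GRCh37 bases on the plus strand, taken in the lowest bin (chr16:46408601-46408800, between genes), in the middle-ranked bin of the low set (chr6:69637801-69638000, in an intron of ADGRB3, an adhesion G protein-coupled receptor of neurons), in the middle-ranked bin of the high set (chr15:35321001-35321200, between genes) and in the highest bin (chr7:1940801-1941000, in an intron of MAD1L1, a spindle checkpoint gene).
Lowest bin: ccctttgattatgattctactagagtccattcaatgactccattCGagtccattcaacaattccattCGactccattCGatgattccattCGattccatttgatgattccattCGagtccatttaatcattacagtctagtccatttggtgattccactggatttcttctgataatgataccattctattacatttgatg
Low set: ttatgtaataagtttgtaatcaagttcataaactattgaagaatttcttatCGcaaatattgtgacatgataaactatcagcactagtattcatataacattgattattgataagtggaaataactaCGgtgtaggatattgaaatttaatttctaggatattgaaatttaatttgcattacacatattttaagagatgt
High set: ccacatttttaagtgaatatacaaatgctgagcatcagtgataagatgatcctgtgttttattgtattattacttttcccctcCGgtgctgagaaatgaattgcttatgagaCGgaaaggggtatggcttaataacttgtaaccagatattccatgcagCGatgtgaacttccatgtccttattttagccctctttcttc
Highest bin: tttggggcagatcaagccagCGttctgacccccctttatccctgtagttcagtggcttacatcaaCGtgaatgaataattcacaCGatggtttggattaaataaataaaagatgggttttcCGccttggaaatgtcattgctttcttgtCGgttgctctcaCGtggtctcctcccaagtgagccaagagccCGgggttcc

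The stretch from the lowest bin is a tandem array of a short repeat, and some of its units hold a CpG. Its 5 CpGs were at 81.3% ± 1.56 before and 2.64% ± 0.782 after resetting (SD, n = 3, 406 to 444 calls per library). The stretch of the low set holds 2 CpGs in AT-rich sequence, at 93.3% ± 6.67 and 8.59% ± 0.437 (SD, n = 3, 11 to 25 calls per library). The stretch of the high set holds 3 CpGs, at 93.9% ± 5.36 and 41.9% ± 10.7 (SD, n = 3, 10 to 21 calls per library). The 7 CpGs of the highest bin's stretch were at 92.5% ± 6.52 and 51.8% ± 5.26 (SD, n = 3, 20 to 28 calls per library). All 4 stretches were thus highly methylated in conventional cells, and each was picked for a reset level near that of its bin.

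By construction the low set lay at the bottom of a broad range. The mean reset level over its bins was 10.6, 11.4 and 11.4% in the 3 libraries, and the same average over the high set was 42.0, 42.7 and 42.9%. Over all eligible bins it was 28.1% ± 0.441 (SD, n = 3). Single bins of the low set reached from 2.71 to 13.7% and those of the high set from 39.8 to 52.1%. There was no gap at either border. The last 2 bins inside the low set were at 13.746 and 13.749% and the first 2 outside at 13.755 and 13.760%, and the corresponding bins at the upper border were at 39.797 and 39.793% inside and 39.790 and 39.790% outside. The sets are therefore the tails of a continuous distribution, with borders that lie within the SD of a single bin.

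**Figure D1:**
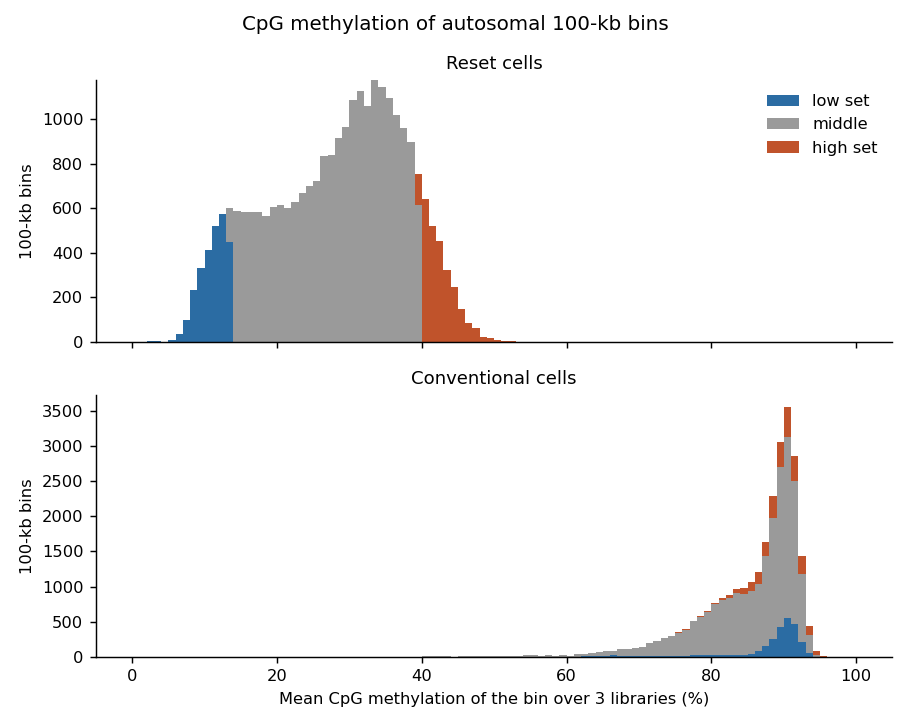
Number of autosomal 100-kb bins (vertical axis) by mean CpG methylation over 3 libraries (horizontal axis, %, steps of 1 point) in reset (top) and conventional cells (bottom), with the low set in blue, the middle bins in grey and the high set in orange. In reset cells the sets are the tails of one broad distribution, from 2.71 to 52.1%, whereas in conventional cells both sets lie mainly under the same peak near 90%.

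Bins were also ranked on 2 reset libraries only, and their levels were read in the library left out. There the bins at the bottom had mean levels of 10.7, 11.5 and 11.5%. The bins at the top had 41.8, 42.5 and 42.7%, against 27.6, 28.2 and 28.4% for all bins. Of the bins ranked in this way, 94.8 to 96.6% were also members of the sets described here. Each library left out had itself entered the choice of those sets. These values therefore describe how alike the replicate libraries were and are no test of the sets.

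Conventional cells had nearly the same level in the low and the high set. In the low set the mean over bins was 87.7, 87.8 and 87.6% in the 3 conventional libraries, and in the high set it was 89.0, 89.1 and 89.0%. The middle bins were lower than both, with a mean of 84.9%. The high set exceeded the low set in each of the 3 conventional libraries, by 1.34 percentage points ± 0.0257 (SD, n = 3, two-sided exact sign-flip permutation test, p = 0.25, the smallest that 3 libraries allow). The medians over bins had the opposite order, with the high set 0.162 points below the low set (SD 0.0516, n = 3, exact sign-flip permutation test, p = 0.25), so the direction of this difference depends on the average used. The low set had a tail of bins that were less methylated from the start. In conventional cells 286 of its bins (10.7%) were under 80%, against 50 bins (1.88%) of the high set and 17.3% of all bins. In bins of 200 kb the mean difference was -0.213 points, the reverse of the direction at 100 kb. It was 0.611 points without bins near large gaps and 25.5 points among the 1049 bins with at least 5000 calls in each library, where the sets were chosen anew.

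**Figure D2:**
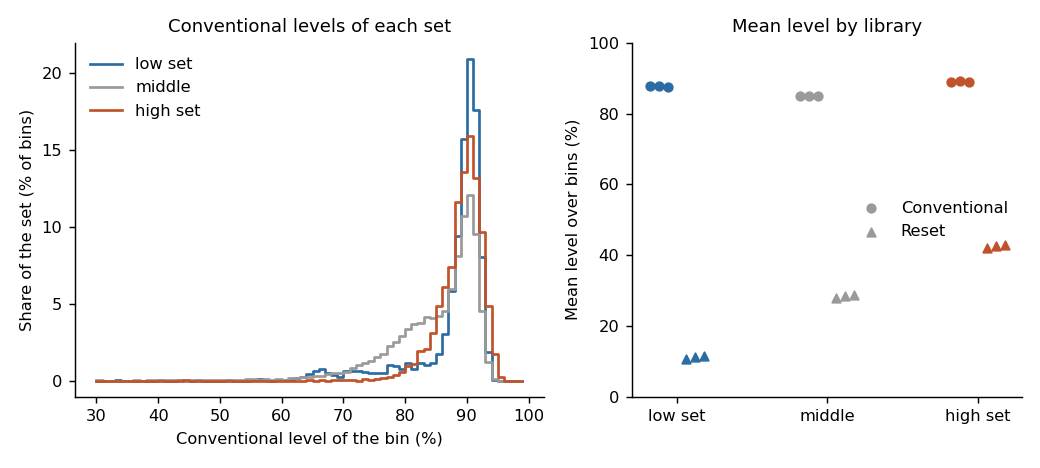
Left: share of each set's bins (%) by conventional level (%, steps of 1 point, axis from 30%), for the low set (blue), middle bins (grey) and high set (orange). Right: mean level over the bins of each set (%) in each of the 3 conventional (circles) and 3 reset libraries (triangles). The sets lie together at 87.6 to 89.1% in conventional libraries and apart at 10.6 to 42.9% in reset libraries.

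The low set kept 12.7% ± 0.515 of its mean conventional level, the high set 47.7% ± 0.525 and all bins 32.8% ± 0.515 (SD over 3 reset libraries). For single bins the share kept had quartiles of 11.2 and 14.3% in the low set and 45.6 and 49.5% in the high set. Without regard to CpG number, conventional and reset levels were nearly unrelated across bins. Their relation among bins of like CpG number was not examined. Over all 26653 bins Spearman's rho between the conventional and the reset level was -0.0709 (Pearson's r -0.00581), as a description of bins that share libraries. Among the 11756 bins with a conventional level of 88 to 92%, the reset level ran from 6.06 to 52.1%, with a median of 26.1% and 5th and 95th percentiles of 10.7 and 42.6%. This narrow band held 63.6% of the low set and 54.2% of the high set.

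In the quasi-binomial model of the calls (limma's squeezed dispersion, Benjamini-Hochberg adjustment over all bins at 0.05), all 2665 bins of the low set and all 2665 of the high set were lower in reset cells. This is a description, since the members were chosen on one side of the contrast, and it equals the background, in which 26644 of 26653 bins were lower (100% to 3 digits) and 7 were higher (0.0263%). The count of the high set was 2664 without squeezing of the dispersion, and without conventional replicate 2 or 3 or reset replicate 1 or 2. Under each of these alternatives the bin of TBX15 described below lost its call. The libraries of the groups did not overlap, with reset below conventional, in all bins of the low set and in 2664 bins of the high set (background 26643 bins, 100% to 3 digits).

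The sets differed in CpG number. A bin of the low set held a median of 560 CpGs (quartiles 511 and 624), a bin of the high set 1075 (833 and 1453), and an eligible bin in general 821 (620 and 1198). Of the low set, 94.8% of bins had fewer CpGs than the median bin, and of the high set 76.2% had more. The GC content had medians of 36.1% in the low set, 42.8% in the high set and 39.9% in all bins. Of the quintile of bins with the fewest CpGs (210 to 592), 32.3% were in the low set and 1.85% in the high set. Of the quintile with the most (1319 to 5242), 0.319% were in the low set and 16.1% in the high set. The share of the high set rose little over the upper 3 quintiles, from 11.99 to 15.1 and 16.1%, while the share of the low set fell at every step. The median reset level of the quintiles rose from 17.2 to 34.2%, whereas the median conventional level fell from 90.3 to 81.7%. Across bins, Spearman's rho with the CpG number was 0.559 for the reset level and -0.542 for the conventional level. A high CpG number was thus accompanied by a lower level in conventional and a higher level in reset cells.

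**Figure D3:**
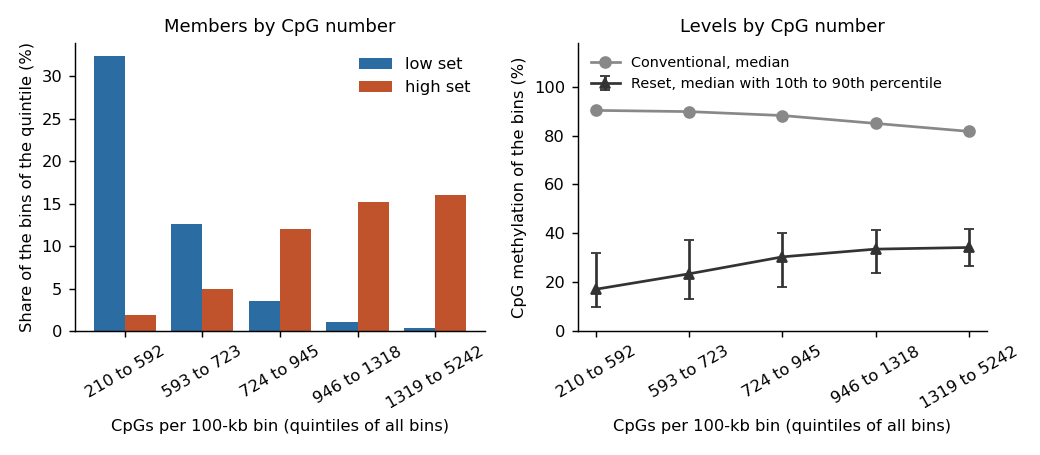
Left: share of the bins of each CpG-number quintile (%) that were in the low (blue) and high set (orange). Right: median conventional level (grey circles) and median reset level with its 10th to 90th percentile over bins (black triangles), in %. The low set takes 32.3% of the first quintile and 0.319% of the last, while reset medians rise from 17.2 to 34.2%.

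Coverage moved with the CpG number. The log2 ratio of reset to conventional calls per CpG, relative to the autosomal totals, had a median of -0.15 in the low set, 0.01 in the high set and -0.05 in all bins, and its Spearman's rho over bins was 0.752 with the CpG number and 0.511 with the reset level. Calls per CpG in the conventional libraries had medians of 3.97 to 4.17 in the low set and of 3.38 to 3.601 in the high set. The part of coverage in the composition of the sets was not tested.

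Levels inside the sets are given by CpG spacing and by context. Because the bins were chosen on the reset level, the reset level of a class is tied to that of its set, and least so for classes with few calls. The reset values therefore describe the sets and support nothing further. CpGs were put into classes by how many CpGs their 1-kb window contains, and the calls of a class were summed. In windows with 1 to 5 CpGs, which held 32.0% of the CpGs of the low set and 6.33% of those of the high set, the reset level was 9.34% ± 0.422 in the low set and 39.2% ± 0.583 in the high set, against 22.9% ± 0.634 in all bins (SD, n = 3). In windows with 11 to 20 CpGs it was 14.4% ± 0.5497 and 43.5% ± 0.475, against 35.4% ± 0.598 (SD, n = 3). The conventional level of these windows lay between 88.1 and 90.2% in both sets and both classes. Windows with 41 or more CpGs held 3.07% of the CpGs of the low set and 8.98% of those of the high set. Their reset level was 6.14% ± 0.618 and 38.9% ± 0.445, against 14.9% ± 0.528 in all bins (SD, n = 3). Long CpG islands were at 6.54% ± 0.977 and 30.4% ± 0.699, against 9.34% ± 0.355 in all bins (reset cells, SD, n = 3). CpGs in introns of protein-coding genes were at 11.3% ± 0.461 in the low set and 43.1% ± 0.518 in the high set, and CpGs outside such genes at 10.8% ± 0.437 and 42.9% ± 0.449 (reset cells, SD, n = 3). Over all bins, which were not chosen on their level, introns were at 33.34% ± 0.594 and CpGs outside such genes at 29.0% ± 0.605 (SD, n = 3).

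**Figure D4:**
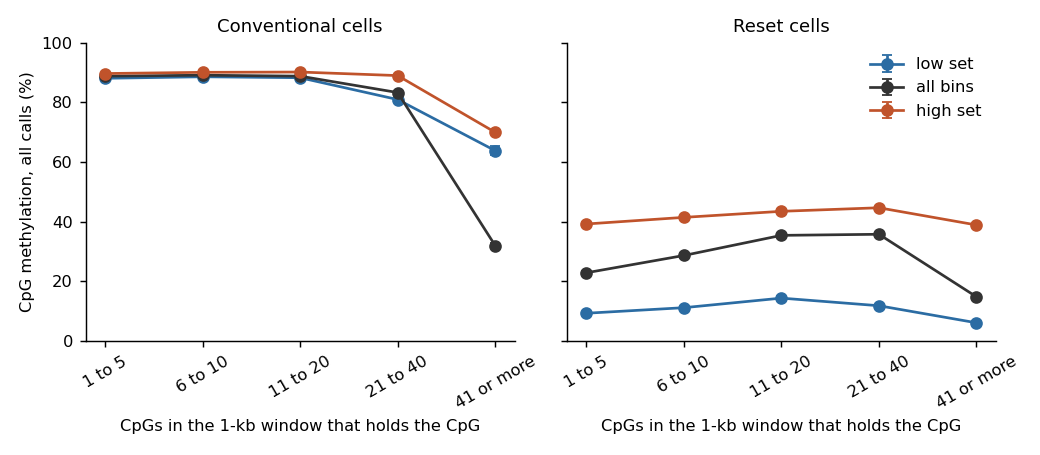
CpG methylation over all calls (%) in conventional (left) and reset cells (right) by the number of CpGs in the 1-kb window that holds the CpG, for the low set (blue), all bins (black) and the high set (orange). Points are means and bars SDs of 3 libraries, mostly smaller than the points. In reset cells, on which the bins were chosen, the sets lie apart in every class, at 9.34 and 39.2% in windows with 1 to 5 CpGs.

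Conventional levels, which the choice did not use directly, differed between the sets in several contexts. As reset levels lay below conventional levels in nearly all bins, a high reset level leaves less room for a low conventional level. The choice thus bears on these values, which are descriptions. Windows with 21 to 40 CpGs were at 80.9% ± 0.248 in the low set and 89.0% ± 0.058 in the high set, exons at 84.5% ± 0.181 and 91.1% ± 0.0528, and promoters outside CGIs at 51.6% ± 0.214 and 71.8% ± 0.489 (SD, n = 3). Over all bins these 3 classes were at 83.3% ± 0.154, 87.6% ± 0.0956 and 54.1% ± 0.180 (SD, n = 3). Windows with 41 or more CpGs were at 63.8% ± 1.48 in the low set and 70.0% ± 0.465 in the high set, against 32.0% ± 0.817 in all bins (conventional cells, SD, n = 3). In the low set this class mixed unlike parts. Outside protein-coding genes it was at 81.6% ± 0.0608 in the low and 82.3% ± 0.256 in the high set, and in introns at 35.9% ± 1.59 and 85.9% ± 0.333 (SD, n = 3), with 72698 and 4290 calls in the shallowest library for the low set. CGIs of at least 500 bp were few in the low set, where 86.7% of bins had none, against 64.2% of the high set and 55.8% of all bins. Among CGIs with at least 10 calls in each library, the share at 50% or more in conventional cells was 64.9% ± 0.0851 of 1795 in the high set, 35.2% ± 0.298 of 388 in the low set and 26.1% ± 0.0897 of all 22967 (SD, n = 3). The calls of all long CGIs together gave no such excess, with 54.2% ± 2.80 in the low set and 52.1% ± 1.03 in the high set (SD, n = 3), so the order of the sets depends on whether islands or calls are counted. Both lay above the 19.5% ± 1.15 of all bins (SD, n = 3). Promoters of protein-coding genes, taken as the 1000 bp before and 500 bp after the start, were at 50% or more in 58.0% ± 0.114 of 876 in the high set and 53.6% ± 0.343 of 445 in the low set, against 31.6% ± 0.192 of all 18633 (conventional cells, SD, n = 3). In reset cells 19.4% ± 1.14 of the promoters of the high set and none of the 445 in the low set were at that level, where 4.06% ± 0.391 of all were.

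The low set was poor in gene starts and gene bodies, and the high set in gene starts alone. No protein-coding gene started in 88.3% of the low set and in 76.1% of the high set, against 61.9% of all bins. With CGIs left out of the levels, and the sets chosen anew, no such gene started in 62.1% of the high set. This is about the 61.9% of all bins in the main choice, so the lack of gene starts in the high set was not found under every choice. The cause of this move was not tested. The low set held the starts of 480 and the high set those of 919 of the 18986 protein-coding genes that start in eligible bins (2.53 and 4.84%, where each set has 10% of the bins). No protein-coding gene body reached into 59.9% of the low set, 24.4% of the high set and 33.5% of all bins. The bases inside protein-coding genes had a median of 0 per bin in the low set, 75199 in the high set and 45632 in all bins, and 23.9, 32.8 and 21.2% of bins lay inside such genes from end to end. No gene of any type overlapped 21.01% of the low set and 3.602% of the high set, against 8.76% of all bins. Of the other gene types, 10.3% of 18005 lncRNA genes and 13.1% of 2807 miRNA genes started in the high set, and 4.03 and 5.88% in the low set. Gene bodies and CpG number go together in the genome, and their parts were not separated beyond the classes given above.

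**Figure D5:**
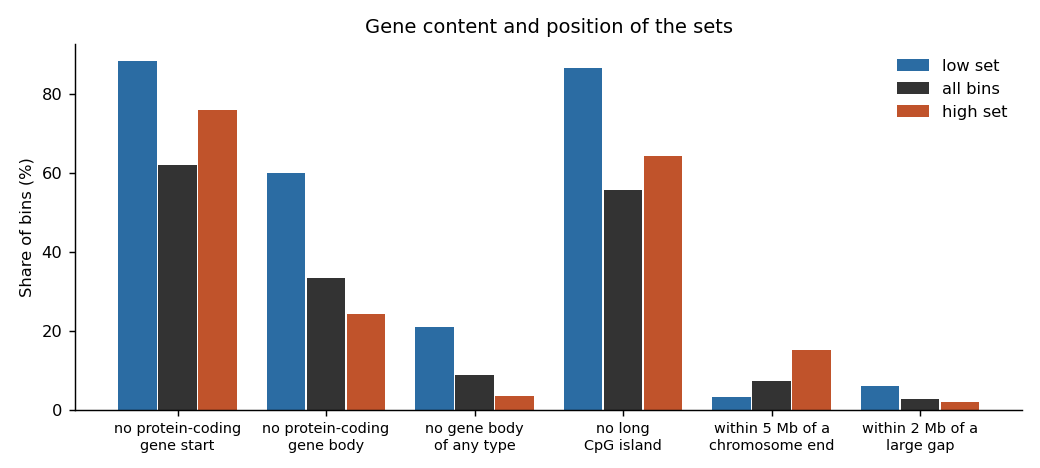
Share of bins (%) with each property in the low set (blue), all eligible bins (black) and the high set (orange). Long CpG islands are those of at least 500 bp, and large gaps are runs of at least 1 Mb of unknown bases in GRCh37. The low set leads in bins with no protein-coding gene body (59.9%) and no island (86.7%), and the high set in bins near chromosome ends (15.1%).

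The sets also lay in different places. Within 5 Mb of a chromosome end lay 15.1% of the high set and 3.26% of the low set, against 7.24% of all bins. Within 2 Mb of an assembly gap of at least 1 Mb, which in GRCh37 stand mainly for centromeres and satellite blocks, lay 5.97% of the low set and 1.99% of the high set, against 2.82%. The low set took the largest share of chromosome 4 (14.7% of its bins) and the smallest of chromosome 19 (1.08%), which had the highest median CpG number of the autosomes (1800 per bin). The high set took the largest share of chromosome 21 (17.7%) and, like the low set, the smallest of chromosome 19 (7.37%). Members were clustered along the chromosomes. Adjacent members formed 1120 runs in the low set, with 80.1% of the bins in runs of 2 or more, and 1750 runs in the high set, with 54.8% of the bins in such runs. Runs of 5 or more bins held 964 bins of the low set and 228 of the high set.

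The longest run of the low set covered 1.3 Mb (chr1:97500001-98800000) in and beside DPYD, whose product degrades pyrimidines. It was at 88.9, 88.8 and 89.1% in the conventional and 8.65, 9.53 and 9.23% in the reset libraries, and its 13 bins had reset levels of 6.80 to 13.7%. Of 6 runs of 12 bins, the first 2 in genome order were at chr1:189400001-190600000, where BRINP3 starts, and at chr5:21700001-22900000, where CDH12 starts. BRINP3 is expressed in the nervous system and CDH12 encodes a cadherin of the brain. Their reset levels were 9.05% ± 0.579 and 9.79% ± 0.429, and their conventional levels 89.7% ± 0.122 and 90.9% ± 0.259 (SD, n = 3). Each of these 3 runs held the start of 1 protein-coding gene.

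The longest run of the high set covered 1.1 Mb (chr7:137600001-138700000) and held 7 protein-coding gene starts, among them CREB3L2 (a transcription factor of the secretory pathway), AKR1D1 (a bile acid and steroid reductase), TRIM24 (a chromatin reader), SVOPL, TMEM213 and ATP6V0A4 (a proton pump subunit). It was at 88.9, 88.4 and 88.8% in the conventional and 44.1, 44.8 and 44.7% in the reset libraries. The next run (chr1:245400001-246400000) held no gene start and lay over KIF26B, a kinesin family gene, and SMYD3, a lysine methyltransferase gene, with 89.6% ± 0.137 and 44.4% ± 0.382 (SD, n = 3). Another run (chr6:14200001-15200000) overlapped no protein-coding gene and was at 89.1% ± 0.0857 and 43.5% ± 0.358 (SD, n = 3). A long stretch of remaining methylation thus occurred both over and away from protein-coding genes.

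The 5 lowest bins all lay within 0.646 Mb of a large gap, and no protein-coding gene reached into them. The lowest, chr16:46400001-46500000, was at 83.6, 83.4 and 83.6% in the conventional and 2.56, 2.80 and 2.78% in the reset libraries. Next came chr7:61700001-61800000 at 2.96% ± 0.326, chr16:46300001-46400000 at 2.98% ± 0.329, chr2:90300001-90400000 at 3.68% ± 0.690 and chr10:42300001-42400000 at 3.76% ± 0.139 (reset cells, SD, n = 3). In conventional cells they ranged from 76.6 to 86.7%. In this order they held 2714, 1681, 560, 1213 and 1063 CpGs, not adjusted for unknown bases. All but the bin with 560 were above the median of all bins (821), unlike most of the low set. The 10-base word most frequent in these 5 bins is AATGGAATCA, with TGATTCCATT on the other strand, and both are counted as copies. The 5 bins it was taken from held 266 to 1206 copies each. At least 10 copies were present in 29 of 26653 bins (0.109%), of which 25 were in the low set, the 5 bins that gave the word included, 4 among the middle bins and none in the high set, whereas at least 1 copy was found in 51.5% of the low set, 50.8% of the high set and 52.2% of all bins. Up to 54.4 calls per CpG fell on such a bin (chr16:46300001-46400000), and 85801 of its bases are unknown in GRCh37. Over 10 calls per CpG in some library were found in 9 bins of the low set, 11 middle bins and no bin of the high set. When positions with very high numbers of calls were left out, the 5 lowest bins were at 2.80 to 4.83% in reset and 76.6 to 86.1% in conventional cells, so their low levels were also found without those positions.

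The 5 highest bins lay mainly inside genes. The highest, chr7:1900001-2000000, is inside MAD1L1 and was at 91.4, 90.8 and 90.4% in the conventional and 52.5, 50.6 and 53.2% in the reset libraries. It belongs to the first 14100000 bases of chromosome 7, where reset coverage was 1.40-fold that of conventional cells relative to the autosomes. That region holds 13 bins of the low and 26 of the high set among its 141. Without it the reset difference between the sets moved from 31.38 to 31.36 points. The other 4 lay in RPTOR (chr17:78800001-78900000, 51.7% ± 1.42), a subunit of the growth-controlling kinase complex mTORC1, in RFLNA (chr12:124600001-124700000, 51.3% ± 0.231), a filamin-binding protein gene, over INPP5A and NKX6-2 (chr10:134500001-134600000, 51.2% ± 0.225), an inositol phosphatase gene and a homeobox gene, and away from protein-coding genes at chr6:33800001-33900000 (51.1% ± 1.196, reset cells, SD, n = 3). NKX6-2 was the single protein-coding gene to start in these 5 bins.

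A few members stood apart in conventional cells, a measure the choice did not use. The least methylated bin of the low set, chr6:28700001-28800000, was at 34.04, 34.9 and 31.7% in the conventional and 13.8, 13.0 and 13.7% in the reset libraries. It kept 40.2% of its conventional level. Next came chr9:69700001-69800000 (40.8% ± 1.56, with 635 to 915 calls per library) and chr13:79100001-79200000 (43.8% ± 1.91), which holds POU4F1, a transcription factor of sensory neurons (conventional cells, SD, n = 3). Both values depend on CGIs. Without them the bin on chromosome 9 was at 73.9% in conventional and 18.7% in reset cells, and that of POU4F1 at 57.1 and 15.5%, both above the border of the low set. With all CpGs weighted alike the bin on chromosome 9 was at 26.3% in conventional cells. The most methylated bins of the low set were in ZNF804B (chr7:88800001-88900000, 94.3% ± 0.586), in ADAMTS19 (chr5:128800001-128900000, 94.0% ± 0.520), a secreted metalloprotease gene, and in SNTG1 (chr8:51000001-51100000, 93.9% ± 0.597), a syntrophin gene (conventional cells, SD, n = 3). In reset cells they were at 13.3% ± 1.78, 7.26% ± 1.31 and 11.3% ± 0.828 (SD, n = 3).

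The least methylated bin of the high set in conventional cells holds TBX15, a T-box transcription factor of limb and skeletal development (chr1:119500001-119600000), with 9 long CGIs. It was at 42.6, 44.5 and 44.9% in the conventional and 40.8, 42.1 and 42.8% in the reset libraries. The groups overlapped in this bin alone among the 5330 members, and it kept 95.2% of its conventional level. As both sides of the contrast entered the choice of this bin, its difference of -2.09 points and its call in the model above are descriptions and not tests. Its size and direction depend on how CpGs are weighted and on the islands. With all CpGs weighted alike the bin was at 39.7% in conventional and 42.5% in reset cells, the reverse order, and without CGIs at 59.5 and 36.99%. The bin of TBX4, a T-box factor of the hindlimb and lung (chr17:59500001-59600000), was at 64.7% ± 0.642 in conventional and 44.1% ± 1.27 in reset cells, and chr19:43100001-43200000 was at 66.1% ± 0.931 and 40.7% ± 0.246 (SD, n = 3). At the other end were bins in KDM2A (chr11:66900001-67000000), a histone demethylase gene with a CpG-binding domain, over ASH1L and RUSC1 (chr1:155300001-155400000), of which ASH1L encodes a histone methyltransferase, and in SMARCC1 (chr3:47700001-47800000), a subunit gene of the BAF remodelling complexes. Their conventional levels were 95.8% ± 0.258, 95.7% ± 0.291 and 95.5% ± 0.215, and their reset levels 42.3% ± 1.2002, 45.5% ± 1.84 and 44.6% ± 1.04 (SD, n = 3).

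Gene families were unevenly spread over the sets, and neighbouring genes often shared a bin. Of 30 late cornified envelope and small proline-rich genes, which form the skin barrier and lie together on chromosome 1, 29 started in 7 bins of the low set (LCE3E, LCE3D, LCE3C and LCE3B are the first) and none in the high set. These 7 bins were at 64.6, 64.1 and 64.7% in the conventional and 10.8, 12.1 and 12.1% in the reset libraries, so they also started well below the set as a whole. Of 22 interferon genes, which encode antiviral cytokines, 8 started in 2 bins of the low set (IFNW1, IFNA21, IFNA4 and IFNA7 are the first) and none in the high set. The 2 bins were at 84.5% ± 0.568 in conventional and 11.6% ± 0.301 in reset cells (SD, n = 3). These are counts of neighbours and not of independent genes, against 2.53% of all protein-coding genes in the low set.

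Several families with smaller shares also had more starts in the low than in the high set. Among them were immunoglobulin and T-cell receptor segments (93 of 387 in the low set, in 19 bins, and none in the high set), histone genes (19 of 70, in 2 bins, and 1 in the high set), protein-coding genes over 500 kb (58 of 310, each in a bin of its own, and 10 in the high set), glutamate and GABA receptor subunit genes (10 of 41 in 8 bins, and 1 in the high set) and olfactory receptor genes (70 of 407 in 27 bins, and 22 in 8 bins of the high set). Serpin genes (5 of 34 in the low and 1 in the high set) and cadherin genes (3 of 23 and 1) had counts of a few genes. The bins of the olfactory receptor genes in the low set were at 72.3% ± 0.187 in conventional and 11.2% ± 0.533 in reset cells, and those of the histone genes at 50.7% ± 0.340 and 12.3% ± 0.125 (SD, n = 3). Keratin-associated protein genes were found in both sets, with 16 of 94 in the low and 21 in the high set.

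Counts in the other families are to be read against the 2.53% of protein-coding genes that start in the low set and the 4.84% in the high set, so that a count of 0 in a short list is near the background. HOX genes (39), clustered protocadherins (53), keratins (55), proteasome subunits (47), pluripotency genes (19) and writers and erasers of DNA methylation (11) had no start in either set. The 11 bins of these writers and erasers were at 75.3% ± 0.483 in conventional and 29.7% ± 0.146 in reset cells, and the 18 bins of the pluripotency genes at 76.6% ± 0.235 and 30.1% ± 0.186 (SD, n = 3). These levels were close to the 28.1% of all bins in reset cells and below their 85.6% in conventional cells. Of 17 germ cell genes, 3 (17.6%) started in the high set. They were RNF17 and MOV10L1 of the piRNA pathway and DAZL, an RNA-binding protein of germ cells, with bins at 85.5% ± 0.351 and 41.7% ± 0.894 (SD, n = 3). PRAME family genes (2 of 9, 1 bin) and HLA genes (2 of 19, 1 bin) also started in the high set. Of 26 imprinted genes, 1 (3.85%), KCNQ1OT1, an antisense RNA that silences its neighbours on the paternal allele, started in the high set, in a bin at 82.6% ± 0.718 and 45.6% ± 1.32 (SD, n = 3). Of 251 zinc finger genes of chromosome 19, 6 (2.39%) started in the high set and none in the low set, both below the shares of all protein-coding genes.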

How the data were processed

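The authors sonicated the DNA, ligated methylated adapters, treated it with bisulfite and amplified it with 11 cycles. Reads were trimmed with Trim Galore and aligned to GRCh37 with Bismark (0.9.0 with Bowtie2 in the submitters' processing notes, where the methods name an earlier release). Removal of duplicate reads is not given in the sources used here, so errors are SDs between libraries. At each cytosine the authors deposited a count of methylated calls, a count of unmethylated calls and the percent methylated. Positions are counted from 0 and 99.8% lay at a reference CpG.

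All positions of a bin were summed over strands, and the minimum of 200 CpGs was read as reference CpGs. Genes are from GENCODE v44lift37, and CGIs were predicted from the sequence (length from 500 bp, GC content from 55%, observed to expected ratio over 0.65). The test of single bins was a quasi-binomial logistic model, a likelihood-ratio F test and bin dispersions squeezed with limma 3.58.1 (R 4.3.3), kept at 1 or more and adjusted over all bins, after a check on simulated data. The conventional difference between the sets was tested by an exact sign-flip permutation over libraries. Other computations used Python 3.11.15 with numpy 2.4.6, pandas 2.3.3 and scipy 1.17.1.

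The members and gene lists were chosen with earlier results of these data known. Named were the 5 lowest and 5 highest bins, the 3 longest runs of each set, the 3 bins with the lowest and the highest conventional level in each set, up to 6 genes that start there, and up to 4 genes of families with at least 33.3% of their genes in one set. Genes named beyond this rule (those at bodies, and the germ cell and imprinted genes) and the middle-ranked bins whose sequence is printed were added after values were seen. Alternatives were other positions, minimums, shares, bin borders and sizes, averages, CGIs or highly covered positions left out, replicates left out, a replicate block and Fisher's exact test.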

Additional observations from a re-analysis of the deposited data

How the results depend on the processing

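The conventional mean of the high set stayed above that of the low set under all alternatives except bins of 200 kb (-0.213 points), but its size moved to 25.5 points with at least 5000 calls per library and to 0.611 points without bins near large gaps, and leaving out 1 replicate gave 1.15 to 1.43 points. The difference of medians turned positive with at least 5000 calls per library (26.1 points) and with the lowest and highest 5% (0.0139 points), and stayed negative without 1 replicate (-0.267 to -0.128). The p of 0.25 is the smallest possible and says nothing about stability.

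At least 5000 calls left 1049 bins and also gave 26.5 points between the reset levels of the sets, 30.6 and 51.8% kept in the low and high set, 64.4 and 67.3% below and above the median CpG number, 25 and 59.6% with no protein-coding gene start, and 1044 bins lower and 5 higher in reset cells. The low set of this choice is not the one described. With the lowest and highest 5% the reset difference was 34.5 points, the shares kept 11.1 and 49.4%, the high set above the median CpG number 79.1% and without a gene start 78.8%. Bins of 200 kb gave 29.3 points and 13.4 and 46.9% kept. With them 95.9 and 79.0% lay below and above the median CpG number, and 80.5 and 47.0% had no gene start. The share of all bins without a gene start is not given for bins of 200 kb or for at least 5000 calls. The gene-start shares under these choices therefore cannot be set against the 61.9% of all bins in the main choice. The unweighted mean over CpGs gave 31.5 points, 13.4 and 48.4% kept, and 74.2 and 78.3% of the high set above the median and without a gene start. Without CGIs these were 31.9 points, 82.3 and 62.1%. Shifted bins gave 77.9% of the high set above the median and 4 bins higher in reset cells. Counting protein-coding gene bodies in place of starts gave 59.9 and 24.4% of bins without one. Without bins near large gaps, an alternative chosen after seeing the data, the reset difference was 31.2 points and 95.9% of the low set lay below the median. The start of chromosome 7, also left out after seeing the data, moved no value past its error. The causes of the moves under the alternatives were not tested.

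Leaving out 1 replicate gave reset differences of 31.4 to 31.5 points, shares kept of 12.5 to 13.0 and 47.6 to 48.0%, CpG shares of 94.5 to 95.01 and 76.1 to 77.0%, shares without a gene start of 88.1 to 88.4 and 75.2 to 76.4%, and 26643 to 26644 bins lower and 6 to 7 higher. The replicate block gave 26644 bins lower and 7 higher, as without it. The bin deviations of same-numbered libraries had correlations of -0.0114, -0.0190 and -0.000586. No pairing by number was thus seen in the bin levels. This cannot decide whether same-numbered libraries shared a culture or batch, which the labels do not give. Of 176 values of named bins under other levels, 39 moved past their SD, those named in the report among them. Depth, near 3 to 4 calls per CpG in a library, limits the description to bins and summed classes.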
